A study of Mus musculus with 72 samples.

Results

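The suprachiasmatic nucleus (SCN) of male C57BL/6 mice was compared between a tryptophan-free diet (-Trp) and a nitrogen-matched control diet (Ctrl) at the 3 time points from lights-off to late night, ZT12, ZT16 and ZT20. ZT counts hours from lights-on, and ZT12 is lights-off. The 18 libraries, 9 per diet with 3 mice at each time, were chosen by diet, light schedule and time point, without regard to their values, from the 72 SCN RNA-seq libraries of the series. All mice were 8 weeks old at the start, spent 1 week alone in a cage under 12 h of light and 12 h of dark (LD) and then ate their diet freely for 2 weeks under the same schedule. The rest of the series holds the same diets in LD at ZT0, ZT4 and ZT8, here called the day, and in constant darkness (DD), where CT marks subjective time.

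The SCN is the hypothalamic clock that sets the daily rhythm of the body. In its neurons the activators CLOCK and BMAL1 (gene Arntl) drive the Per and Cry genes, whose proteins then repress them. Tryptophan is an essential amino acid, taken up only from food, and is the source of serotonin, melatonin and, through the kynurenine pathway, NAD. The study states that C57Bl6/J mice make no melatonin. Night is the active and feeding phase of mice, and their corticosterone peaks around lights-off. The comparison asks which transcripts of the SCN differ in level between the diets in that phase.

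The diet, light schedule and time of each library rest on how the deposited columns are placed. Across the 4 tables, the columns carry names that are shifted by 12 columns against the order in the supplementary data of the study. The values of the 9 Ctrl columns equalled those of the study's Ctrl LD night columns in 100% of the 1915 to 1925 genes compared, at a relative tolerance of 0.0001, and no other column shared more than 5 of them. The 9 -Trp columns were placed by continuing the shift and could not be checked in this way. By name, the same columns would be -Trp DD (here Ctrl) and Ctrl LD (here -Trp) at 4, 8 and 12 h. The direction of every difference below, the light schedule and the time therefore depend on this placement. The LD day and DD columns set against them below were placed by the same shift, and their values were not compared here.

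Values are FPKM, fragments scaled to the length of the transcript and the number of mapped fragments, divided by a factor per library that ranged from 0.909 to 1.08 over the series. FPKM gives no count of fragments, so the depth is unknown. From the steps between the lowest values, relative depth ranged from 0.892 to 1.12 of the median library in -Trp and from 0.877 to 1.26 in Ctrl. Differences are -Trp minus Ctrl on the log2(FPKM + 0.5) scale with their standard error (SE), from limma fitted with the 3 times as levels, and a gene is called at a Benjamini-Hochberg adjusted p under 0.05. Fold changes are of FPKM + 0.5. On this scale the change of a gene of low level is understated.

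A set of 4 libraries stood apart. Ctrl ZT20 replicate 2 and -Trp ZT12 replicates 2 and 3 had scores of 31.6 to 40.9 on the first principal component (23.8% of the variance), where the others lay between -16.7 and 6.14. In these 3 libraries, GC-rich transcripts exceeded GC-poor ones, each relative to its median over the libraries, by 0.33 to 0.58 on the log2 scale, against -0.13 to 0.09 in the other 15. The -Trp ZT12 replicate 2 library also held 122 FPKM of albumin (Alb), a liver transcript that was at 0 to 0.283 FPKM elsewhere. In -Trp ZT20 replicate 3 the summed level of 8 striatal transcripts was 942 FPKM, against 26.7 to 57.5 FPKM in Ctrl. The sum was also raised in -Trp ZT16 replicate 3 (132 FPKM), which is not among the 4, and in -Trp ZT12 replicate 3 (117 FPKM). It was 26.7 to 48.5 FPKM in the remaining -Trp libraries. Vasopressin (Avp) was 43.2 FPKM in -Trp ZT20 replicate 3, against 124 to 961 FPKM in the others. Of the SCN peptides, Vip ranged from 3.79 to 32.9 FPKM over the 18 libraries, while Oxt, which marks neighbouring hypothalamic neurons, ranged from 258 to 2529 FPKM, so the tissue was not SCN alone. Counts are therefore also given without these 4 libraries, a choice made after the data were seen.

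Of 14121 genes tested, 27 (0.191%) were called, 12 higher in -Trp (0.085%) and 15 lower (0.106%). Their differences ran from -0.64 to 1.16, beside a median of 0.00 over all genes tested. Of all genes tested, 7356 lay above 0 and 6765 below, which is the background for the counts by sign in the lists below. Of the genes that rose, 4 are on a list of glucocorticoid-responsive genes, compiled with earlier results of these data known. Those that fell ranged from Opalin and Aspa to Mcam and Insig1. All 27 kept their sign at each of the 3 times, which their choice on the same libraries favours, and none was called at a single time. When each library was left out in turn, 14 of the 27 (9 higher and 5 lower) were called in all 18 fits. The calls of the others were less stable, with Notch3 and Rgs5 called in 4 of 18 fits, Plxnb3 in 5, Adamts1 and Sfxn5 in 6, Mfsd2a in 8, Aspa and Fgfr2 in 9, Opalin and Insig1 in 11, Serpinb1a in 14 and Phyhd1 in 17. The 9 libraries of one diet lay wholly above or below the 9 of the other in 4 of the 27 genes (Cyp4f15, Htra1, Mboat1 and Prr5l) and in 9 of all genes tested (0.0637%). Without the 4 libraries 77 genes were called (0.549%), 31 higher and 46 lower, among them 25 of the 27. Insig1 and Sfxn5 were not among them but kept their sign. Without only the 3 libraries that differ in GC, 27 genes were called, 7 higher and 20 lower, and 17 of them were among the 27. With same-numbered libraries of a time taken as pairs, 11 of the 27 were called, and in 1 fit for all 72 libraries 15 were.

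Sult1a1, a sulfotransferase that conjugates phenols, had the largest difference of the 27. Its level ran from 4.46 to 8.65 FPKM with a median of 6.00 in Ctrl and from 8.57 to 18.7 FPKM with a median of 13.7 in -Trp. One -Trp library at ZT20 lay just below the highest Ctrl library, and the other 8 lay above it. The difference was 1.16 ± 0.14 (SE), a 2.24-fold rise (adjusted p = 0.00195), and stayed between 1.10 and 1.27 when each library was left out in turn. The gene lies at chr7:126672865-126676432 (mm10, minus strand).

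Fkbp5, Plin4 and Mt2 rose as well. Fkbp5 encodes a co-chaperone that lowers the affinity of the glucocorticoid receptor for its hormone and is itself a classic target of that receptor. It ran from 7.21 to 10.5 FPKM (median 8.84) in Ctrl and from 7.92 to 15.7 FPKM (median 14.6) in -Trp, a 1.5-fold rise (0.58 ± 0.09, adjusted p = 0.00863). Within each of the 3 times the 3 -Trp libraries lay above the 3 Ctrl libraries. Plin4 codes for a coat protein of lipid droplets. It ran from 0.630 to 2.06 FPKM (median 1.45) in Ctrl and from 1.17 to 6.50 FPKM (median 3.64) in -Trp. In FPKM + 0.5 it was 2.21-fold higher (1.15 ± 0.17, adjusted p = 0.00807), with overlap of the diets at ZT20 only. The metallothionein Mt2, which binds zinc, reached 168 to 299 FPKM (median 179) in Ctrl and 217 to 399 FPKM (median 313) in -Trp. Its difference of 0.53 ± 0.08 was a 1.45-fold rise (adjusted p = 0.00863), and no library of one diet crossed into the other within a time.

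**Figure D1:**
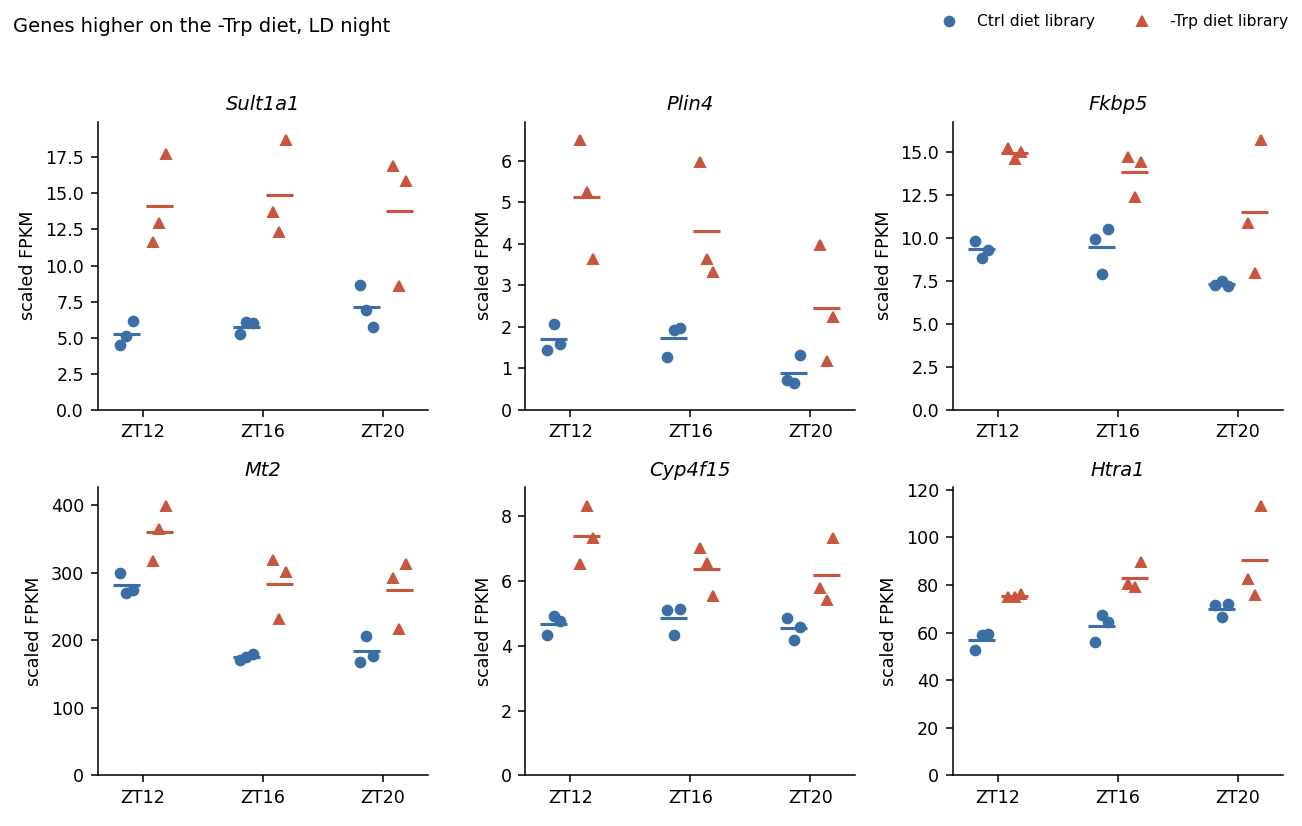
Scaled FPKM (vertical axes, from 0) of 6 genes that were higher in -Trp, by time of night (horizontal axes), for each Ctrl library (blue circles) and -Trp library (red triangles), with bars at the mean of 3. Fkbp5, Mt2, Cyp4f15 and Htra1 do not overlap between the diets at any of the 3 times, while Sult1a1 and Plin4 overlap at ZT20.

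The 250 bases before the RefSeq start (GRCm38.p6) of Sult1a1, Fkbp5 and Mt2 are shown because these genes rose and hold letters of a searched motif. Capitals mark TGTTCT, the half-site letters of the glucocorticoid receptor, in Sult1a1 (chr7:126676419-126676668, minus strand) and the E-box CACGTG in Fkbp5 (chr17:28486150-28486399, minus strand). In Mt2 (chr8:94172368-94172617, plus strand) they mark TGCNCNC. This pattern is looser than the core of the metal response element, so a match need not hold that core. Each motif was searched on both strands.
Sult1a1: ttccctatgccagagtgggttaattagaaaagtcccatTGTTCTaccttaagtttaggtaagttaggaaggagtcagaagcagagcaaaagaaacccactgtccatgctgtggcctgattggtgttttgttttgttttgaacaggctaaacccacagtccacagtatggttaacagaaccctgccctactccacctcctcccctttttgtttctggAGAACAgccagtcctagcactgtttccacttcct
Fkbp5: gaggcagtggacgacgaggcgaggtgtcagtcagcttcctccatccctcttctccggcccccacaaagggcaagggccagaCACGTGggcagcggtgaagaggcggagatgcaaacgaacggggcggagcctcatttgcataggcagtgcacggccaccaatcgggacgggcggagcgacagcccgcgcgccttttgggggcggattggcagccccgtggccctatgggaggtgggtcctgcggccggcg
Mt2: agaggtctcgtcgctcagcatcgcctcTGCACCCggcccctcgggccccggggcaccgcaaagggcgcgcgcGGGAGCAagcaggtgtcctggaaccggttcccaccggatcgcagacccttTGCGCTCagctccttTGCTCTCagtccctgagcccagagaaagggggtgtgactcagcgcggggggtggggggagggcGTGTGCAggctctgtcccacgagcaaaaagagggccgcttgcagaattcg

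Sult1a1 held 2 matches of TGTTCT, starting 212 and 34 bases before the start, Fkbp5 held 1 of CACGTG, and Mt2 held 5 of TGCNCNC. Of 32851 promoters in the table, 16.1% held TGTTCT, 6.02% CACGTG and 44.4% TGCNCNC in these 250 bases. Among the genes that rose, 11 of 12 matched the table, and TGTTCT was found for 2 of them (Fam107a and Sult1a1), CACGTG for 1 and TGCNCNC for 7. Of the 15 that fell, 13 matched, with TGTTCT for 0, CACGTG for 1 (Insig1) and TGCNCNC for 9. A gene counted if any of its promoters held the motif (15 promoters in each set), while the shares are per promoter. The full palindrome of the glucocorticoid response element was found for none of the 11 and 13 genes that matched and in 0.0365% of all promoters. TCACNCCAC, also searched, was found for 0 of the raised genes, for 1 of the lowered (Adamts1, not Insig1) and in 1.05% of all promoters. A match of letters is no measured binding.

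Sult1a1, Fkbp5, Plin4 and Mt2 are the 4 called of 16 tested members of a list of 18 glucocorticoid-responsive genes. Of all genes tested, 0.085% were called higher. All 16 differences were above 0, with a median of 0.33 beside 0.00 over all genes tested. The list median was 0.40 without the 4 libraries, 0.19 in the LD day and 0.18 in DD at CT12 to CT20. Sgk1, a kinase that regulates ion channels, had the largest difference of the members not called (0.96 ± 0.22, adjusted p = 0.0998). At ZT16 it measured 8.36, 10.8 and 12.1 FPKM in Ctrl and 32.9, 37.9 and 44.7 FPKM in -Trp, with no overlap, while at ZT12 and ZT20 the diets overlapped. Cdkn1a, a cell cycle inhibitor, stood at 0.64 ± 0.15 (adjusted p = 0.133), Mt1 at 0.35 ± 0.10 (0.276), Tsc22d3, also known as GILZ, at 0.30 ± 0.10 (0.485) and the clock gene Per1 at 0.20 ± 0.08 (0.565). Lcn2 and Map3k6 were under the filter of 0.5 FPKM. The list was compiled with earlier results of these data known, so neither its direction nor its called members are independent evidence.

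**Figure D2:**
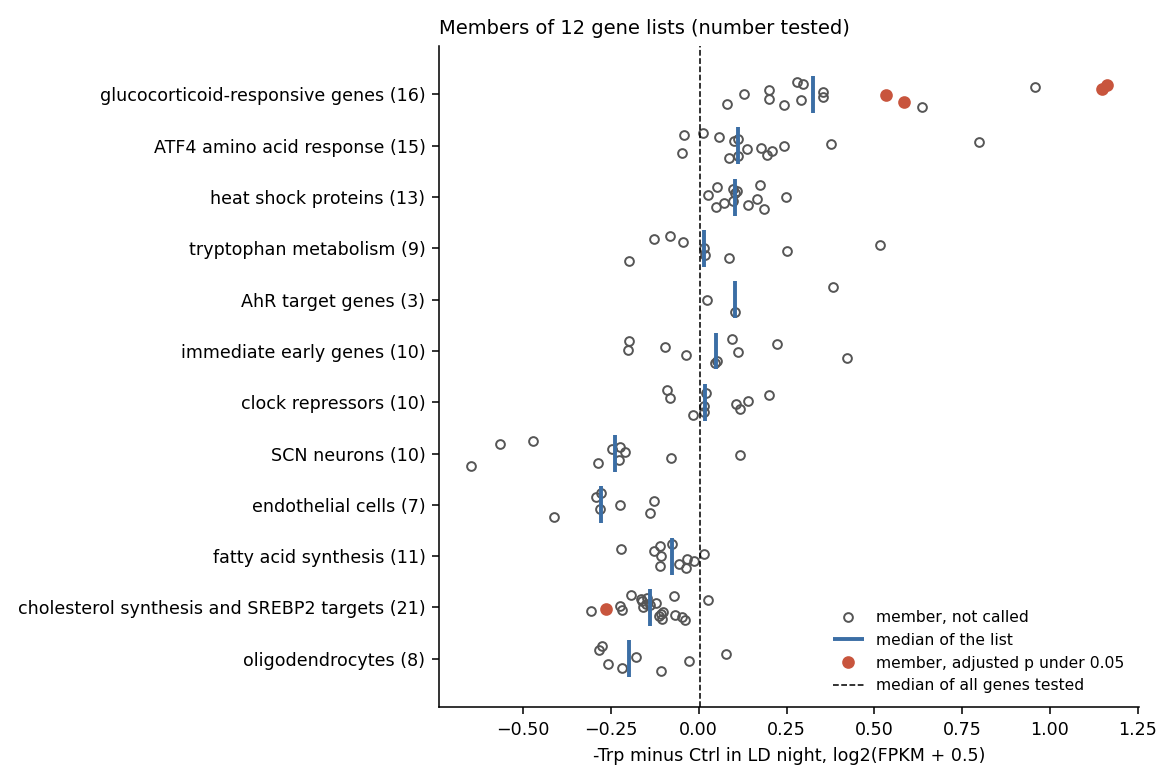
Difference between the diets in LD night (horizontal axis, -Trp minus Ctrl, log2) for each tested member of 12 gene lists (rows, number tested in parentheses), with called members filled in red, the median of the list as a blue bar and the median of all genes as a dashed line. The 16 glucocorticoid-responsive genes all lie right of 0, and 20 of the 21 genes of cholesterol synthesis lie left of it.

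Of the other genes that rose, Cyp4f15, a cytochrome P450 of the family that hydroxylates fatty acids, ran from 4.18 to 5.15 FPKM (median 4.76) in Ctrl and from 5.43 to 8.31 FPKM (median 6.56) in -Trp. The 2 diets were fully separated, with a difference of 0.45 ± 0.07 (adjusted p = 0.00863). Phyhd1, a dioxygenase, ran from 10.7 to 16.1 FPKM (median 12.9) in Ctrl and from 13.1 to 24.7 FPKM (median 20.2) in -Trp (0.59 ± 0.10, adjusted p = 0.0172). These were the 2 members called of 6 tested in a list of Phyhd1 and Cyp4f genes, whose median was 0.04. Of all genes tested, 0.085% were called higher. The list was chosen with earlier results of these data known, so its calls are not independent evidence. The other 4 Cyp4f genes were not called.

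Prodh, the first enzyme of proline breakdown, ran from 9.32 to 12.7 FPKM (median 10.4) in Ctrl and from 12.3 to 18.1 FPKM (median 14.5) in -Trp (0.45 ± 0.07, adjusted p = 0.00863). Within each time all -Trp libraries lay above all Ctrl libraries.

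Htra1, a secreted serine protease, was fully separated, at 52.5 to 71.8 FPKM (median 64.4) in Ctrl and 75.0 to 113 FPKM (median 79.0) in -Trp (0.39 ± 0.06, adjusted p = 0.0154). The highest value came from -Trp ZT20 replicate 3, and without the 4 libraries the difference was 0.32. Fam107a, an actin-binding protein, ran from 74.0 to 97.3 FPKM (median 88.3) in Ctrl and from 96.4 to 174 FPKM (median 127) in -Trp (0.53 ± 0.08, adjusted p = 0.00804). One -Trp library lay within the Ctrl range and 8 above it. A further 2 genes were carriers. Mfsd2a, the transporter of lysophospholipids at the blood-brain barrier, rose by 0.41 ± 0.08 (adjusted p = 0.029) and Slc25a34, a mitochondrial carrier, by 0.32 ± 0.05 (adjusted p = 0.00807).

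Among the genes that fell, Opalin, a membrane protein made by oligodendrocytes, had the largest difference of the 15. It ran from 24.0 to 46.6 FPKM (median 38.5) in Ctrl and from 12.0 to 43.0 FPKM (median 23.1) in -Trp, a difference of -0.64 ± 0.11 (adjusted p = 0.0227). At ZT16 and ZT20 all -Trp libraries lay below all Ctrl libraries, and at ZT12 the diets overlapped. Aspa, which cleaves N-acetylaspartate in oligodendrocytes, ran from 9.05 to 16.3 FPKM (median 12.5) in Ctrl and from 6.36 to 10.7 FPKM (median 8.80) in -Trp (-0.50 ± 0.09, adjusted p = 0.0284), with no overlap within a time. Car2, a carbonic anhydrase of oligodendrocytes, ran from 87.4 to 107 FPKM (median 94.2) in Ctrl and from 60.9 to 91.3 FPKM (median 69.3) in -Trp (-0.40 ± 0.06, adjusted p = 0.00804). At ZT12 and ZT16 its -Trp libraries lay below all 9 Ctrl libraries.

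Pllp, a proteolipid of myelin, fell by 0.45 on the log2 scale (SE 0.08, adjusted p = 0.016). The widely used myelin genes were not called. In the oligodendrocyte list, which holds Mbp, Mog and Mag, 0 of 8 passed and 7 were below 0, with a median of -0.20. Mog was at -0.29 ± 0.08 (adjusted p = 0.276), and Mobp stood at 0.08 ± 0.10. Of 12 genes of precursors and differentiation only Opalin was called (2 without the 4 libraries), 9 were below 0 and the median was -0.12, with Enpp6, a gene of newly formed oligodendrocytes, at -0.50 ± 0.11 (adjusted p = 0.0998). The summed level of the 8 oligodendrocyte genes overlapped between the diets, at 2260 to 3194 FPKM in Ctrl and 1676 to 2660 FPKM in -Trp. In bulk tissue, fewer cells of a type and less RNA per cell cannot be told apart.

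Mcam, a cell adhesion molecule found in vessel walls, ran from 5.43 to 8.29 FPKM (median 6.25) in Ctrl and from 3.38 to 6.04 FPKM (median 4.85) in -Trp (-0.42 ± 0.06, adjusted p = 0.00804). Notch3, a receptor that vascular smooth muscle needs, ran from 1.38 to 2.11 FPKM (median 1.87) in Ctrl and from 1.06 to 1.73 FPKM (median 1.38) in -Trp (-0.31 ± 0.06, adjusted p = 0.045). Both were lower in every -Trp library than in every Ctrl library of the same time. The pericyte marker Rgs5 was at -0.45 ± 0.09 (adjusted p = 0.0359) and the secreted protease Adamts1 at -0.36 ± 0.07 (adjusted p = 0.029). Rgs5 was the only member called of 6 tested pericyte and fibroblast genes, whose median was 0.17 and, without the 4 libraries, -0.02. All 7 endothelial genes were below 0, with a median of -0.28, and none was called, with Flt1, a VEGF receptor, at -0.28 ± 0.10 (adjusted p = 0.534). Ctrl ZT20 replicate 2 had the highest summed endothelial level, 86.8 FPKM, against 30.0 to 35.6 FPKM in the other Ctrl libraries, and without the 4 libraries the median was -0.37 with 2 of 7 called lower.

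**Figure D3:**
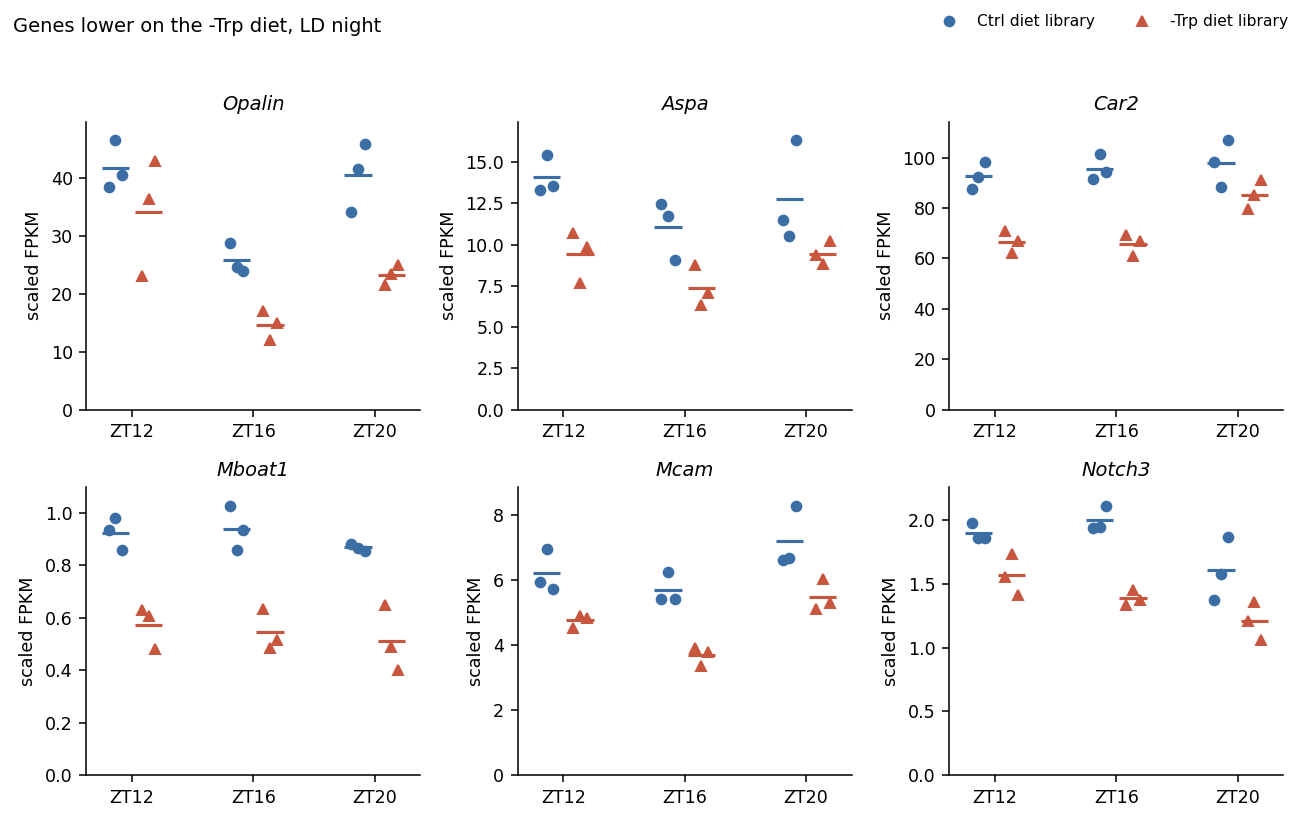
Scaled FPKM (vertical axes, from 0) of 6 genes that were lower in -Trp, by time of night (horizontal axes), for each Ctrl library (blue circles) and -Trp library (red triangles), with bars at the mean of 3. Mboat1 is fully separated, and Opalin overlaps between the diets at ZT12.

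Mboat1, an acyltransferase of phospholipids, was fully separated although its level was low, at 0.855 to 1.02 FPKM (median 0.881) in Ctrl and 0.402 to 0.649 FPKM (median 0.517) in -Trp (-0.44 ± 0.06, adjusted p = 0.00804). Prr5l, which binds the kinase complex mTORC2, ran from 2.48 to 3.98 FPKM (median 2.77) in Ctrl and from 1.68 to 2.34 FPKM (median 2.08) in -Trp (-0.41 ± 0.06, adjusted p = 0.00804). It too was fully separated. The protease inhibitor Serpinb1a was at -0.54 ± 0.09 (adjusted p = 0.0189), the growth factor receptor Fgfr2 at -0.36 ± 0.06 (adjusted p = 0.0243), the semaphorin receptor Plxnb3 at -0.33 ± 0.06 (adjusted p = 0.0359) and Sfxn5, of a family of mitochondrial carriers, at -0.20 ± 0.04 (adjusted p = 0.0348).

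Insig1, which holds the sterol-sensing SREBP complex in the endoplasmic reticulum, was 29.2 to 39.7 FPKM (median 36.8) in Ctrl and 25.9 to 32.2 FPKM (median 30.2) in -Trp (-0.26 ± 0.05, adjusted p = 0.0232). It was the only member called of 21 genes of cholesterol synthesis and SREBP2 targets, of which 20 were below 0, with a median of -0.14. The list was chosen with earlier results of these data known. Hmgcs1, the enzyme before the rate-limiting step, stood at -0.31 ± 0.06 (adjusted p = 0.0506), and the other members lay between -0.22 and 0.03. The median of this list was -0.11 in the LD day and -0.13 in DD. In fatty acid synthesis 10 of 11 were below 0 and none was called, with a median of -0.08 and Scd1 at -0.22 ± 0.08 (adjusted p = 0.48).

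In lists on tryptophan itself no member was called. Of 20 genes of tryptophan metabolism 9 were expressed above the filter, with a median of 0.02, and the smallest p was that of Ccbl2, a kynurenine aminotransferase (0.25 ± 0.08, adjusted p = 0.321). The median was 0.10 over 3 targets of the aryl hydrocarbon receptor (Ugt1a6a 0.38 ± 0.12, adjusted p = 0.331), -0.08 over 11 serotonin receptors (Htr2c -0.21 ± 0.13, adjusted p = 0.75), -0.05 over 7 genes of NAD synthesis (Nadsyn1 -0.14 ± 0.09, adjusted p = 0.767) and -0.08 over 12 NAD-consuming enzymes (Sirt2 -0.10 ± 0.05, adjusted p = 0.698). The cellular response to missing amino acids, driven by ATF4, had 13 of 15 tested members above 0 and a median of 0.11, with none called and Chac1 at 0.21 ± 0.06 (adjusted p = 0.264). Cytosolic aminoacyl-tRNA synthetases were above 0 in 17 of 20 (median 0.05, Rars 0.14 ± 0.05, adjusted p = 0.504). Amino acid transporters had a median of 0.00 over 25 (2 called lower without the 4 libraries), and Slc7a10, a serine and glycine transporter of astrocytes, was at -0.30 ± 0.06 (adjusted p = 0.0619).

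None of the clock genes was called. Dbp, an output gene under direct control of CLOCK and BMAL1, had a lower mean at ZT20 than at ZT12 in both diets. At ZT12 it was 31.9, 33.1 and 37.3 FPKM in Ctrl and 24.0, 41.9 and 42.6 FPKM in -Trp, and at ZT20 it was 15.6, 15.8 and 16.0 FPKM in Ctrl and 12.9, 16.4 and 26.95 FPKM in -Trp. The difference over the night was 0.04 ± 0.13 (adjusted p = 0.963). Per2 was at 0.02 ± 0.08, with 2.58 to 3.93 FPKM in Ctrl and 2.76 to 4.52 FPKM in -Trp. Its single times read -0.22 at ZT12, -0.03 at ZT16 and 0.30 at ZT20, and the interaction with time, at an unadjusted p of 0.0243, did not pass adjustment. Arntl, at 4.66 to 8.14 FPKM in Ctrl and 4.5 to 9.54 FPKM in -Trp, read 0.05 ± 0.10 and likewise ran from -0.26 at ZT12 to 0.38 at ZT20. Its interaction with time did not pass adjustment either. In Per2 and Arntl the lowest -Trp values were those of ZT12 replicates 2 and 3, and the highest that of ZT20 replicate 3. The lowest Ctrl value of Arntl was that of ZT20 replicate 2. These are the 4 libraries that stood apart, and their part in the change over time was not tested.

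The differences of the other clock genes were -0.05 ± 0.08 for Clock, -0.09 ± 0.08 for Per3, 0.02 ± 0.08 for Cry1, 0.11 ± 0.06 for Cry2, 0.14 ± 0.06 for Nr1d1 and -0.02 ± 0.07 for Timeless, with adjusted p from 0.61 to 0.973. Npas2, a partner of BMAL1, was 9.08 FPKM in the library with the highest striatal sum and 1.87 to 2.74 FPKM in the other 8 of -Trp (0.39 ± 0.18, adjusted p = 0.68). The medians were 0.02 over 10 clock repressors and -0.06 over 6 activators and RORs. SCN neuron markers were below 0 in 9 of 10, with a median of -0.24 and wide errors, among them Avp at -0.65 ± 0.33 (adjusted p = 0.705) and Vip at -0.57 ± 0.47 (adjusted p = 0.805). Their summed level was 250 to 677 FPKM in Ctrl and 58.0 to 977 FPKM in -Trp, and without the 4 libraries the median was -0.13.

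**Figure D4:**
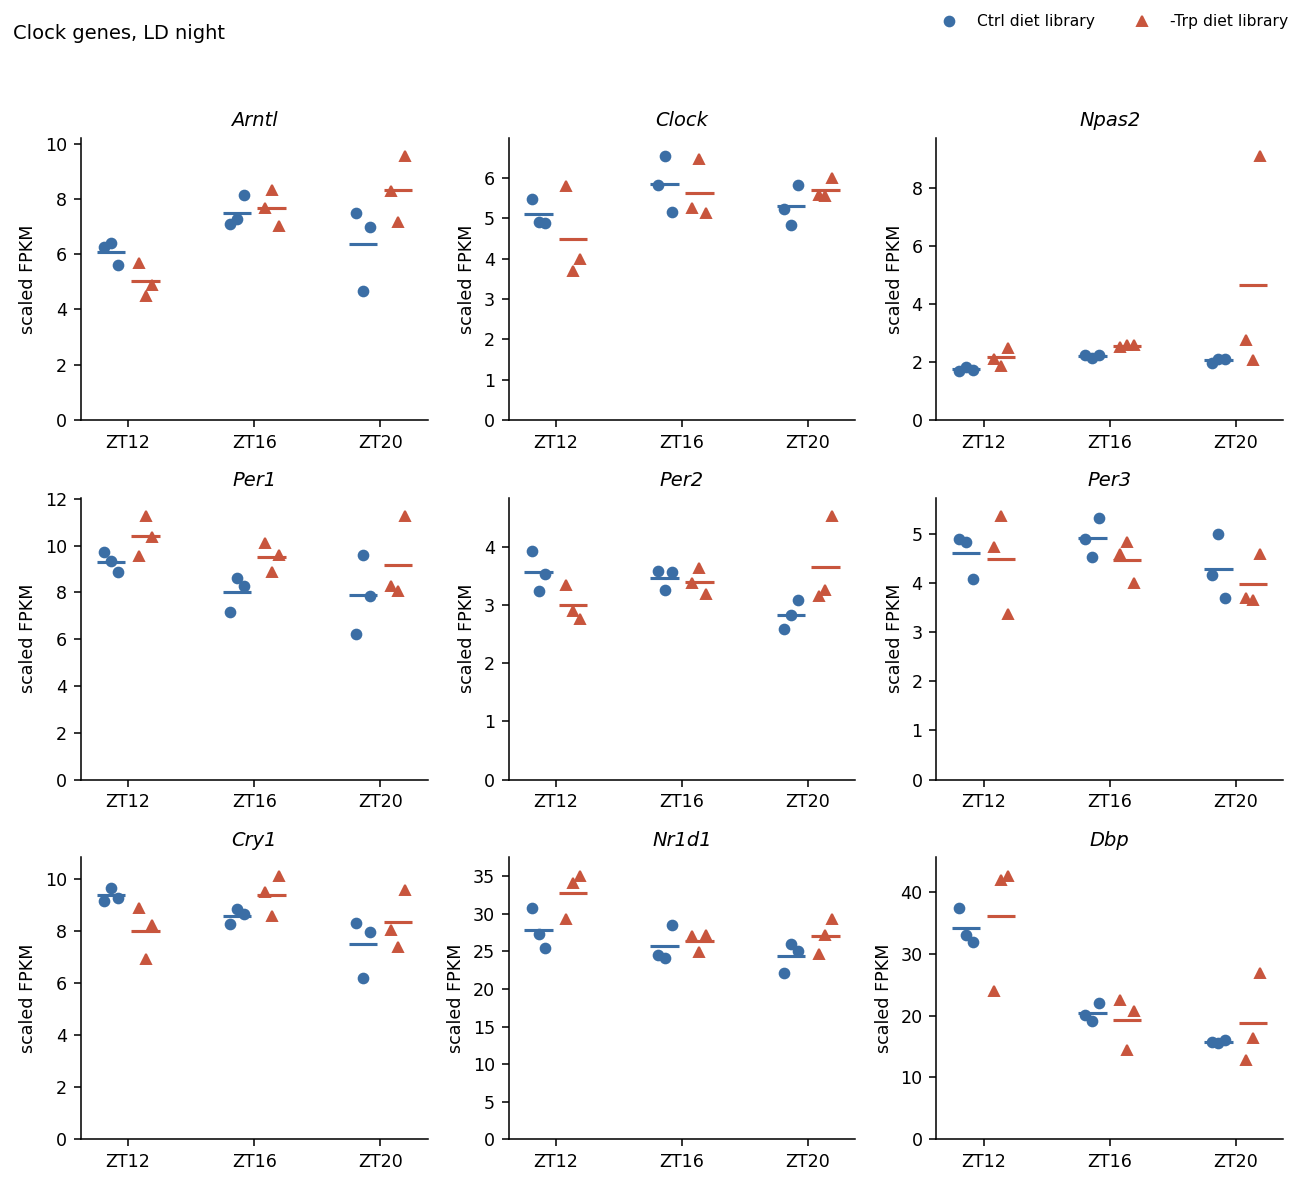
Scaled FPKM (vertical axes, from 0) of 9 clock genes by time of night (horizontal axes), for each Ctrl library (blue circles) and -Trp library (red triangles), with bars at the mean of 3. The mean of Dbp is lower at ZT20 than at ZT12 in both diets, and the high Npas2 value at ZT20 belongs to the -Trp library with the highest striatal sum.

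The remaining lists gave no calls with all 18 libraries. Without the 4 libraries, 2 potassium channels were called higher and 1 lower, and 1 astrocyte marker and 1 fatty acid binding protein were called lower. Feeding and neuroendocrine peptides had a median of 0.24 over 13, with Npy, the feeding peptide, at 9.43 to 29.2 FPKM in Ctrl and 7.33 to 125 FPKM in -Trp (1.20 ± 0.42, adjusted p = 0.499). Heat shock proteins were above 0 in 13 of 13, with a median of 0.10 that was -0.05 in the day and 0.00 in DD, and Hsph1 stood at 0.18 ± 0.06 (adjusted p = 0.407). Thyroid hormone genes were above 0 in 6 of 7, with a median of 0.35 (0.16 without the 4 libraries) and the receptor Thra at 0.15 ± 0.04 (adjusted p = 0.174). ER chaperones had 13 of 15 above 0 (median 0.08) and ribosomal proteins 64 of 76 (median 0.04, and 0.00 without the 4 libraries). Astrocyte and microglial markers had medians of 0.06 and 0.05, general neuronal markers -0.02, immediate early genes 0.05, glutamate receptors -0.02, potassium channels 0.02, sodium and calcium channels 0.03, receptors for GABA, glycine and acetylcholine -0.05 and nuclear subunits of oxidative phosphorylation 0.01. They were 0.12 for clock output factors, 0.03 for serine synthesis and one-carbon enzymes, -0.07 for fatty acid binding proteins, -0.09 for cold-inducible proteins, 0.01 for interferon-response genes, -0.01 for splicing regulators and -0.25 for SCN peptides and their receptors.

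Markers of neighbouring cells differed in median as well, with none called. Ependymal markers were below 0 in 4 of 4 (median -0.43), blood markers in 4 of 4 (-0.16) and markers of paraventricular and supraoptic neurons in 4 of 5 (-0.24). Tanycyte markers were above 0 in 3 of 3 (0.44) and choroid plexus markers in 3 of 4 (0.14). Without the 4 libraries these medians were -0.27 (ependymal), -0.43 (blood), -0.09 (paraventricular and supraoptic), 0.35 (tanycyte) and -0.01 (choroid plexus). The summed tanycyte level was 130, 44.6 and 21.8 FPKM in -Trp ZT20, ZT16 and ZT12 replicate 3, where striatal sums were highest. It was 3.75 to 13.8 FPKM in Ctrl and 4.70 to 11.7 FPKM in the other -Trp libraries. Liver and striatal transcripts, lists added after the data were seen, had medians of 0.61 and 0.68, and -0.09 and 0.25 without the 4 libraries. Their part in the differences above was not tested.

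At single times, 3 libraries against 3, no gene was called (0% at ZT12, ZT16 and ZT20, limma), while 1401, 339 and 1191 genes had an unadjusted p under 0.05. The smallest adjusted p was 0.27, 0.0943 and 0.551. Sult1a1 and Car2 were among the 3 genes of smallest p at both ZT12 (1.33 ± 0.23 and -0.47 ± 0.09) and ZT16 (1.28 ± 0.23 and -0.54 ± 0.09), beside Slc2a4, an insulin-regulated glucose transporter, at ZT12 (0.82 ± 0.15) and Sgk1 at ZT16 (1.84 ± 0.29). At ZT20 they were A930003A15Rik (-0.72), Tlcd1 (-0.43) and Slc7a10 (-0.49). A change of the diet difference over the night was not detectable. The test of diet by time called 0 genes (0%, limma), 582 had an unadjusted p under 0.05, and those of smallest p were Gm20063, Glod5 and 1700124L16Rik (unadjusted p 0.000292, 0.00121 and 0.00183). All 3 were of low level, with medians of 0.547, 1.14 and 4.09 FPKM in Ctrl. One library decided the count at ZT12, where 808 genes were called without -Trp ZT12 replicate 1, which left the 2 -Trp libraries that stood apart.

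Next the night was set against the LD day (ZT0, ZT4 and ZT8), from other mice. The difference of the diet effects called 2 genes (0.0141%), both more raised at night. Fkbp5 was at 0.58 at night and at -0.09 in the day, a difference of 0.67 (adjusted p = 0.0271). P4ha1, a prolyl hydroxylase for collagen, was at 0.20 at night and -0.17 in the day, a difference of 0.37 (adjusted p = 0.0271). Leaving out 1 library kept Fkbp5 in 11 of 18 fits and P4ha1 in 9. Without the 4 libraries the values were 0.60 (adjusted p = 0.0163) and 0.38 (adjusted p = 0.0565), and without the 3 that differ in GC both calls were lost, at 0.69 and 0.37 (adjusted p = 0.101 for each). Fkbp5 was also lost in 1 fit for all 72 libraries (adjusted p = 0.113), as was P4ha1 (adjusted p = 0.349). Opalin, next by p, read -0.64 at night and -0.01 in the day (adjusted p of the difference 0.246).

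In the day 2 genes were called for the diet (0.0141%), and both, Sult1a1 (0.75, adjusted p = 0.0362) and Phyhd1 (0.56, adjusted p = 0.0388), were among the 27. Of these 27, 23 had the same sign in the day. The median of the 12 raised genes was 0.53 at night and 0.25 in the day, and that of the 15 lowered genes -0.41 and -0.11. The night values chose these genes, so their larger size at night is not evidence of a stronger effect then.

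In DD at CT12, CT16 and CT20, again other mice, 26 of the 27 had the same sign, and 14 were called, where 6.6% of all genes were. Among them were Sult1a1, Phyhd1, Mt2, Cyp4f15, Prodh and Slc25a34 of the raised and Mcam, Pllp, Serpinb1a, Fgfr2, Plxnb3, Adamts1 and Sfxn5 of the lowered. The medians in DD were 0.51 and -0.30. Fkbp5 was the exception in sign, at -0.10 in DD.

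The LD and DD night differences themselves differed in 304 of 14433 genes (2.11%), of which Fkbp5 was the only one of the 27 (0.68, adjusted p = 0.0399, kept in 6 of 18 fits that left out 1 library). Its call was lost without the 4 libraries (0.62, adjusted p = 0.0849) and without the 3 (0.70, adjusted p = 0.0673). The 304 genes were 171 higher and 133 lower in LD, and without the 4 libraries 266 were called, 112 higher and 154 lower, of which 144 were among the 304. The smallest p were those of Arl8a, a lysosomal GTPase (0.06 in LD and -0.31 in DD), Lag3, an immune checkpoint gene (0.25 and -0.63), and SlcUbl4a (-0.30 and 0.56). Each of the 3 had an adjusted p of 0.0122 and was called in all 18 fits. Among clock genes only Tef, an output factor related to Dbp, was called (0.17 and -0.11, adjusted p = 0.0432), in 7 of the 18 fits. The number of genes called swung from 105 without Ctrl ZT12 replicate 1 to 847 without -Trp ZT12 replicate 1.

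**Figure D5:**
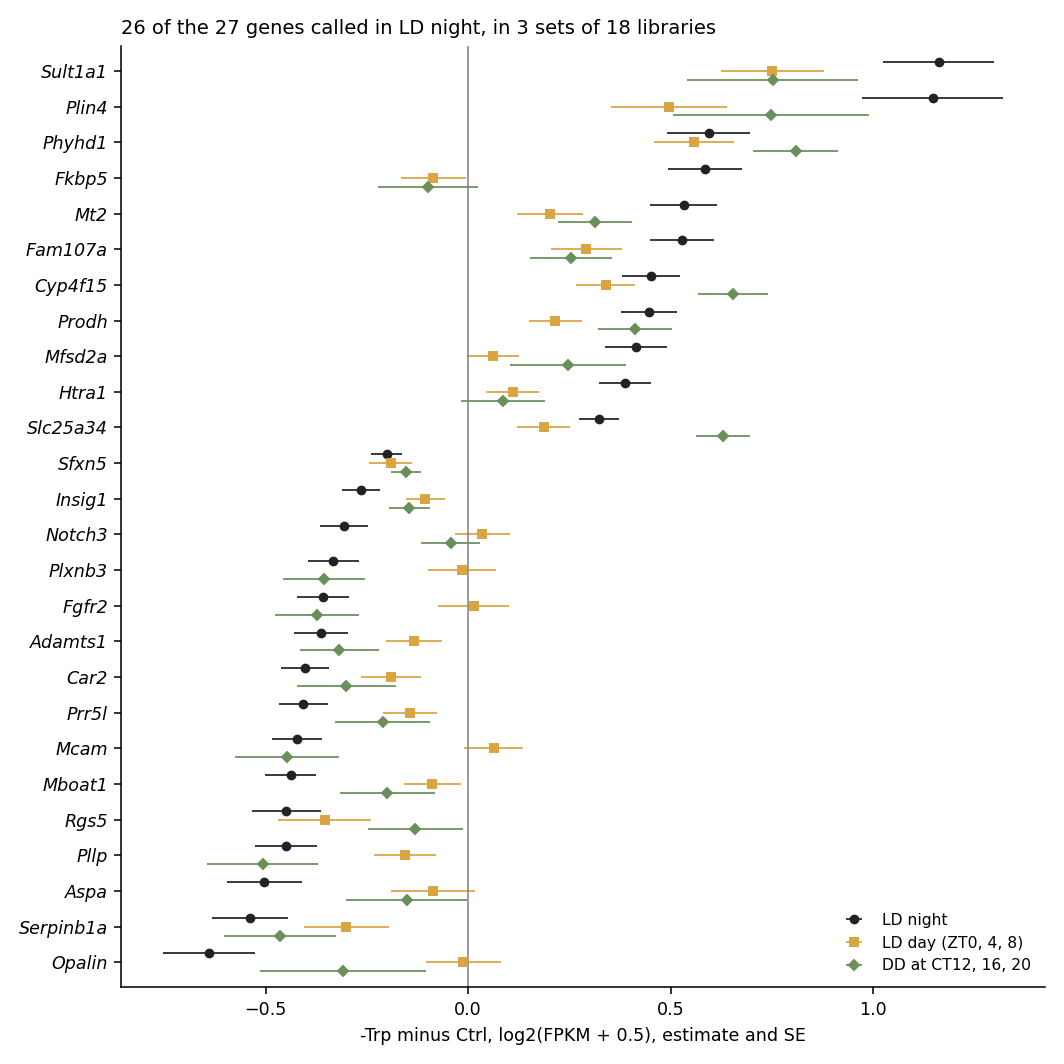
Difference between the diets (horizontal axis, -Trp minus Ctrl, log2, with SE as bars) of 26 of the 27 genes called in LD night (rows, sorted by the night value), in LD night (black circles), in the LD day (yellow squares) and in DD at CT12, CT16 and CT20 (green diamonds). The genes were chosen on the black values. Fkbp5 is raised in LD night and lies at -0.09 and -0.10 in the other sets.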

How the data were processed

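SCN RNA was sequenced by the study as stranded, paired-end TruSeq mRNA libraries. The authors trimmed reads with Trimmomatic, aligned them to mm10 with TopHat and computed FPKM with Cufflinks (versions not given in the sources used here), and the deposited tables hold 24883 rows of FPKM per library. Columns were placed as described in the report. Here FPKM was divided by median-of-ratios factors over 72 libraries. Genes whose mean reached 0.5 FPKM in the fitted libraries were tested with limma 3.58.1 (R 4.3.3) on log2(FPKM + 0.5), eBayes with trend, two-sided, adjusted by the Benjamini-Hochberg method. The night fit held time as a factor plus diet, and the others a mean per diet, light and time. In the fits with a mean per diet, light and time, p-values measure the spread between the 3 libraries of a diet at a time point. In the night fit the spread also holds any change of the diet difference between the times.

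The scripts were tested on simulated data. The alternatives were pseudocounts of 0.1 and 1, no filter, a minimum mean of 1 FPKM, FPKM as deposited, no trend, a replicate block, 1 fit for 72 libraries, columns as named, and leaving out each of the 18 libraries. Leaving out 3 or 4 libraries was added after seeing the data. Named genes are up to 12 called in each direction, up to 4 called members of each list or else the one of smallest p, the clock genes and the 3 of smallest p in every other test. Rows whose symbol is not unique (817) were left out of that naming. Notch3, Plxnb3, Rgs5, the unlisted members of lists and the genes of the libraries that stand apart were added. A gene that was called, with its list, is not reported here. The lists, tests and markers were chosen with earlier results of these data known. Positions are from GENCODE release M21, promoters from RefSeq, figures from matplotlib 3.10.9.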

Additional observations from a re-analysis of the deposited data

Results flagged for a closer look

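Of 88 groups of 9 libraries examined (44 genes in each diet), 11 held a library whose gap to the nearest other exceeded Dixon's 95% critical value. Chance gives this in about 1 group in 20, but the count cannot be read against that share, since each group pools 3 times and Alb, Drd1 and Oxt were picked because they mark the libraries that stood apart. In -Trp ZT20 replicate 3 these were Npas2 at 9.08, Drd1 at 37.1, Cry2 at 33.8, Tef at 91.9 and Htra1 at 113 FPKM, each the highest, and Oxt at 258 FPKM, the lowest. Alb was highest in -Trp ZT12 replicate 2, at 122 FPKM. Among the Ctrl libraries, Prr5l at 3.98 FPKM and Rgs5 at 4.17 FPKM were highest in ZT20 replicate 3, Cry1 at 6.19 FPKM was lowest in ZT20 replicate 2, and Sfxn5 at 62.3 FPKM was lowest in ZT16 replicate 1.

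The diet difference itself differed between LD night and LD day for Fkbp5 (0.67) and P4ha1 (0.37) at adjusted p = 0.0271 in limma, and both calls were lost without the 3 libraries that differ in GC. Between LD night and the same hours in DD, 304 of 14433 genes (2.11%) differed at adjusted p under 0.05 in limma, 11 of them named genes. Arl8a, Lag3 and SlcUbl4a were named for their p in this test, so the 11 cannot be read as a share. Higher in LD were Lag3 (0.87), Fkbp5 (0.68), Kl (0.58), Arl8a (0.37), Thra (0.29) and Tef (0.28), and lower were Oxt (-1.98), Sim1 (-0.96), SlcUbl4a (-0.87), Ndufc2 (-0.51) and Srsf5 (-0.28). Without the 4 libraries the calls of Fkbp5 (adjusted p = 0.0849), Kl (0.0935), Oxt (0.0765), Sim1 (0.161), Srsf5 (0.0541) and Thra (0.1003) were lost in limma. When 1 library was left out, Oxt was called in 4 of 18 fits, Fkbp5, Sim1 and Thra in 6, Kl and Tef in 7, Srsf5 in 17 and the other 4 in all 18. Oxt and Sim1 mark paraventricular and supraoptic neurons, whose list median was -0.24 in LD night and 1.10 in DD. The part of that tissue in these differences was not tested.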

How the results depend on the processing

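The placement of the columns decides the results. With the columns taken as named, 756 genes were called over the night, of which 2 were among the 27, and the counts were 7554 at ZT12, 1 at ZT16, 1 at ZT20, 5251 for the interaction with time, 7713 for night against day and 6702 for LD against DD. The sign then turned for Adamts1 (0.0885), Aldh1l1 (-0.36), Aspa (0.0849), Fam107a (-0.22), Fkbp5 (-0.0747), Htra1 (-0.48), Ifi27 (0.38), Mboat1 (0.14), Mfsd2a (-0.0324), Notch3 (0.0478), Plxnb3 (0.0680), Prodh (-0.0191), Rgs5 (0.24) and Slc25a34 (-0.31), since this setting compares other diets, light schedules and times.

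With a replicate block, 11 genes were called over the night, 8 higher and 3 lower, all among the 27, and 0 for night against day (limma, 698 at an unadjusted p under 0.05). Same-numbered libraries did not deviate together (9 correlations from -0.14 to 0.27), so the numbers were not taken as pairs. In 1 fit for all 72 libraries, 45 genes were called over the night, 15 of them among the 27, with 1 at ZT16, 0 for night against day (limma, 706 unadjusted) and 598 for LD against DD. FPKM as deposited gave 1 gene for night against day. Without the 4 libraries 77 genes were called over the night, 2 at ZT12, 4 at ZT16 and 2 for the interaction, and for night against day 3, of which 1 was among the 2. Without the 3 that differ in GC, the count was 27 over the night, 17 of them among the 27, and 2 at ZT12, 2 for the interaction and 2 for night against day, of which 0 were among the 2 (limma, 745 unadjusted). Both settings leave 1 -Trp library at ZT12, which is assumed to vary like the other groups, so their counts at ZT12 and for the interaction rest on a single library. The cause was not tested. The pseudocounts, filters, unscaled FPKM and the fit without a trend called 24 to 33 genes over the night. In all settings but the columns as named, the 27 kept their sign where tested.

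Leaving out 1 library gave 15 to 41 genes over the night. It was 15 without Ctrl ZT12 replicate 3 or -Trp ZT16 replicate 2, 16 without Ctrl ZT12 replicate 2, 17 without Ctrl ZT16 replicate 2 or Ctrl ZT20 replicate 3, and 41 without Ctrl ZT20 replicate 2. The ranges were 0 to 808 at ZT12, 0 to 2 at ZT16, 0 to 1 at ZT20, 0 to 1 for the interaction, 0 to 3 for night against day (3 without Ctrl ZT16 replicate 2 or -Trp ZT12 replicate 3) and 105 to 847 for LD against DD. Night against day gave 0 without any 1 of Ctrl ZT12 replicates 1, 2 and 3, Ctrl ZT16 replicate 1, Ctrl ZT20 replicates 2 and 3 and -Trp ZT12 replicate 1. It gave 1 without -Trp ZT16 replicate 2 or -Trp ZT20 replicate 2. LD against DD gave 105 to 181 without any 1 of Ctrl ZT12 replicates 1, 2 and 3, Ctrl ZT16 replicates 1 and 2, Ctrl ZT20 replicate 1, -Trp ZT12 replicate 2 and -Trp ZT16 replicate 3, 200 without -Trp ZT16 replicate 1, 798 without Ctrl ZT20 replicate 2 and 847 without -Trp ZT12 replicate 1. FPKM gives no depth, so differences of genes near 0.5 FPKM are the least certain.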
